A study of Mus musculus with 15 samples.

Results

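The 10 genes described here encode transcription factors and cofactors that set or hold the preadipocyte state. They are the GATA factors Gata2, Gata3 and Gata6, the FOG cofactors Zfpm1 (FOG1) and Zfpm2 (FOG2), the zinc finger proteins Zfp423 and Zfp521, and the early B cell factors Ebf1, Ebf2 and Ebf3. They were chosen by symbol, all 10 had a row among the 26301 gene numbers counted, and all 10 passed the filter on low counts in both sets of libraries. The cells were 3T3-L1, mouse fibroblast-like preadipocytes that become adipocytes after insulin, dexamethasone and IBMX are given, and their RNA was sequenced on day 2. The knockdown set compared sh-Empty cells, with an empty retroviral hairpin vector, and sh-Jmjd1a cells, with a hairpin against Jmjd1a, the H3K9 demethylase gene that is also called Kdm3a. In the rescue set, all cells carried the Jmjd1a hairpin and in addition expressed LacZ as a control, the wild-type enzyme (JMJD1A(WT)), or the iron-binding mutant JMJD1A(H1122A). Each of the 5 groups had 3 replicates, 15 libraries in all. The cells were stable lines made by retroviral infection and antibiotic selection, and the labels do not say whether replicates came from separate infections or cultures, so p-values measure the spread between these samples.

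In preadipocytes, GATA2 and GATA3 are known to hold back differentiation by acting on the Pparg promoter and by binding C/EBP proteins, and FOG proteins bind GATA factors and bring corepressors to them. ZFP423 marks committed preadipocytes, supports Pparg expression and makes the cells responsive to bone morphogenetic proteins (BMPs) through SMAD proteins. ZFP521 is its close relative and is known as a brake on adipogenesis that opposes ZFP423 and EBF1. EBF1 promotes adipogenesis, and EBF2 is best known in precursors of brown and beige fat.

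Total counts ranged from 11437058 to 25523148 per library, with a median of 12916162. Kdm3a was at 177 ± 7.31 CPM (counts scaled to library size, mean ± SD, n = 3) in sh-Empty and at 132 ± 5.77 CPM (SD, n = 3) in sh-Jmjd1a. It was at 119 CPM with LacZ, 1690 CPM with JMJD1A(WT) and 2197 CPM with JMJD1A(H1122A). All 10 fibroblast or mesenchymal markers were at 1 CPM or more in each group. Their summed level was 12967 to 13129 CPM in sh-Empty and 21993 to 23242 CPM in sh-Jmjd1a cells, and from 26239 to 28449 CPM over the rescue set. In sh-Jmjd1a against sh-Empty cells, 7 of these 10 markers were higher and 2 were lower, where 46.2% of all genes were called (adjusted p under 0.05). With JMJD1A(H1122A) 5 were higher and 2 lower against JMJD1A(WT) (23.8% of all genes called), and 6 were higher against LacZ (9.24%). With JMJD1A(WT) against LacZ 2 were higher and 2 lower (9.5%). The part of these shifts in the results below was not tested. The 7 macrophage markers summed to at most 6.43 CPM in any library, with Ptprc and Adgre1 at 0 in every rescue library. The 6 endothelial, 6 epithelial and 6 T lymphocyte markers summed to at most 1.54, 2.64 and 1.83 CPM. Of the erythroid or megakaryocyte lineage, which uses GATA and FOG proteins, 7 markers summed to 9.74 to 15.8 CPM, most of it Itga2b with group means of 8.87 to 13.4 CPM, while Gata1 and Hbb-b1 were at 0 in every library. In bulk RNA, fewer cells of a kind and less RNA per cell cannot be told apart.

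Positions are given on mm9 from GENCODE M1. Gata2 spans 88143885 to 88157024 of chromosome 6 on the plus strand and Gata3 spans 9778705 to 9811661 of chromosome 2 on the minus strand. Zfpm1 lies on chromosome 8 (124806039 to 124861146, plus strand) and Zfpm2 on chromosome 15 (40486588 to 40936138, plus strand). Zfp423 lies on chromosome 8 as well (90185709 to 90483494, minus strand). Ebf1 spans 44430819 to 44821593 of chromosome 11 on the plus strand, Ebf2 spans 67852129 to 68048604 of chromosome 14 on the plus strand, and Ebf3 spans 144385356 to 144506128 of chromosome 7 on the minus strand. An antisense transcript, Gm13256, shares 155 exon bases with Gata3 (3.9% of its merged exons), and 1010001N08Rik shares 58 with Gata6 (1.82%). The strand setting of the counting is not given in the sources used here, so reads from those stretches cannot be assigned. On the same strand as the gene, 9230102O04Rik, annotated as protein-coding, shares 77 exon bases (1.94%) with Gata3. A pseudogene entry in the annotation, also on the same strand, shares 453 bases (4.64%) with Ebf1.

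RefSeq promoter windows on GRCm38.p6, 300 bases each, were found for 6 of the 10 genes, with 9 windows in all. Zfp423 is shown because it changed the most among the 10 genes when JMJD1A(WT) was expressed, and it has 2 annotated starts whose use the counts do not separate. Ebf3 is shown as a gene that fell on knockdown. Each sequence is the 250 bases before a start, 5′ to 3′ on the minus strand that carries the gene, with CpG dinucleotides in capitals. The windows are chr8:87959596-87959845 and chr8:87804440-87804689 for Zfp423 and chr7:137314446-137314695 for Ebf3.
Zfp423 upstream start: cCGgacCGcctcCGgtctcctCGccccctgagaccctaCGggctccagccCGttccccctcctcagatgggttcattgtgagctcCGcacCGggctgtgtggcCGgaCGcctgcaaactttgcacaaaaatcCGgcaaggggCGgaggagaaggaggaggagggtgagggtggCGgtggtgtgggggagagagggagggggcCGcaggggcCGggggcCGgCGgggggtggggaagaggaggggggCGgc
Zfp423 downstream start: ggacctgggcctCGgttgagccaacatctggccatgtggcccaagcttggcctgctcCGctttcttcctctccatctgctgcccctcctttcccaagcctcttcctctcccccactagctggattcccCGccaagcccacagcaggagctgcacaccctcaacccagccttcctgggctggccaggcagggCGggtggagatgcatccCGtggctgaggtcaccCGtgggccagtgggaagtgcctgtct
Ebf3 start: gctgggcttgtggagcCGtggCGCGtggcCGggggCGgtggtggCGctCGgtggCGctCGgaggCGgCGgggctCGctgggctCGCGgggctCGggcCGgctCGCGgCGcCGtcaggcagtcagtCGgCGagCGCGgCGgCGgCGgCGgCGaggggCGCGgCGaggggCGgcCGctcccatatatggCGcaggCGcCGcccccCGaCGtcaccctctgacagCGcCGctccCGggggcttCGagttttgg
The upstream start of Zfp423 had 18 CpG dinucleotides in these 250 bases, the downstream start had 6, and Ebf3 had 43. Over the whole 300-base windows the GC content of the 9 promoters ranged from 36.7% at 1 Ebf1 start to 77.0% at Ebf3, and the median of all 32851 windows was 52.7%. None of the 9 held the EBF palindrome (TCCC, 2 bases of any kind, GGGA), present in 0.904% of all windows on either strand. The GATA motifs AGATAA and TGATAA, each searched on both strands and counted apart, were present in 11.2% and 9.05% of all windows and in none of the 9.

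Levels of different genes were set side by side per kilobase of merged exons (RPKM). In sh-Empty cells Gata6 was the highest, at 10.0 ± 0.713 RPKM (SD, n = 3), followed by Ebf3 at 9.37 ± 0.430 RPKM (SD, n = 3), and the values of the pair overlapped. Zfpm1 came next at 4.66 RPKM, then Zfp521 at 3.56 and Ebf1 at 3.54 RPKM, which overlapped. Below them Ebf2 and Zfpm2 overlapped at 2.63 and 2.44 RPKM, and Zfp423 was at 1.69 RPKM. Gata2 at 1.11 RPKM and Gata3 at 0.163 RPKM were the lowest, so that the GATA factors best known as brakes on adipogenesis had the least RNA of the 10 genes on day 2. Gata2 and Gata3 held the last places in all 5 groups. In sh-Jmjd1a cells the order changed at the top, with Zfp521 first at 7.89 ± 0.438 RPKM (SD, n = 3), above every value of Ebf3 at 6.92 and Gata6 at 6.49 RPKM. Zfp521 was also first with LacZ, where its values overlapped those of Gata6, and with JMJD1A(H1122A), at 9.94 RPKM, where they did not. With JMJD1A(WT) Gata6 was first, at 8.06 RPKM, without overlap with Zfp521 at 6.93 RPKM, and Zfp423 was at 4.60 RPKM, against 2.57 with LacZ and 2.30 with JMJD1A(H1122A), with values that overlapped those of Zfpm1 at 4.54 RPKM. Taking the longest transcript as the length raised Ebf1 from 3.54 to 5.77 RPKM in sh-Empty cells, above Zfpm1 and Zfp521. It also put Ebf1 (6.96 RPKM) above Gata6 (6.75 RPKM) with JMJD1A(H1122A), and Ebf3 (7.29 RPKM) above Zfp521 (6.97 RPKM) with JMJD1A(WT). The gene in first place stayed the same in each group.

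**Figure D1:**
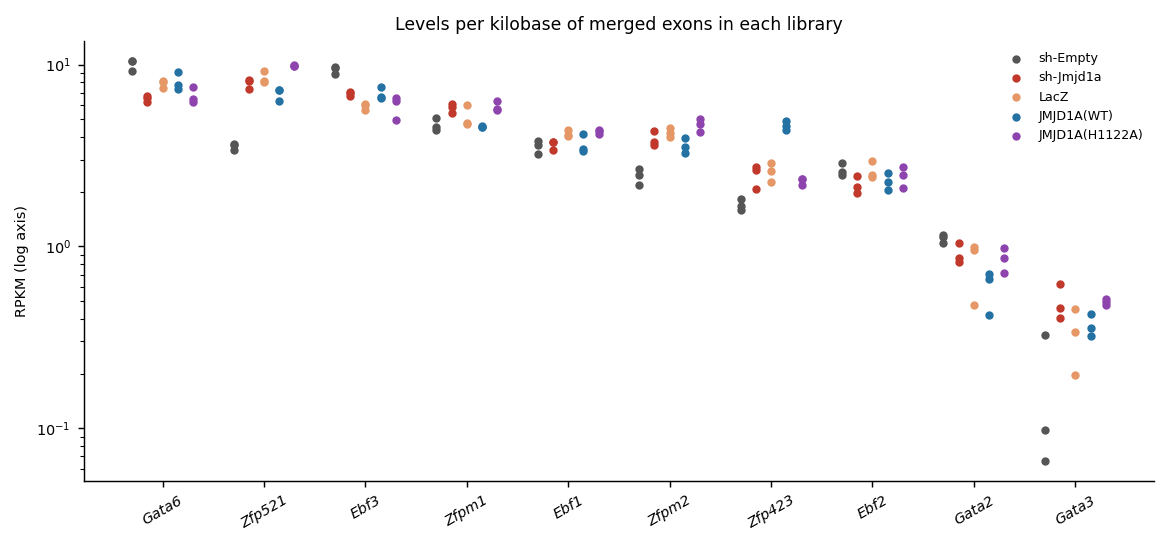
RPKM of the 10 genes on a log axis, with 1 point per library and 1 colour per group, genes in the order of their mean. Gata2 and Gata3 lie below the other 8 genes in each group, and Zfp521 and Zfp423 show the widest separation of groups among the rest.

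Genes were called at an adjusted p under 0.05 (edgeR, quasi-likelihood F test, adjusted by Benjamini-Hochberg over all genes). Of the 10 genes, 7 differed between sh-Jmjd1a and sh-Empty cells, 5 higher (Gata3, Zfpm1, Zfpm2, Zfp423 and Zfp521) and 2 lower (Gata6 and Ebf3). Gata3 was tested only through the group where it was high, and without it 6 genes were called. Over all 12272 genes tested 46.2% were called, 22.3% higher and 23.9% lower. With JMJD1A(WT) against LacZ 2 of the 10 were called, Zfp423 higher and Zfp521 lower, where 9.5% of the 12557 genes tested were called (4.98% higher and 4.52% lower). In JMJD1A(H1122A) against JMJD1A(WT) 5 of the 10 were called, with Zfpm1, Zfpm2, Zfp521 and Ebf1 higher and Zfp423 lower, against 23.8% of all genes (12.1% higher and 11.7% lower). With JMJD1A(H1122A) against LacZ only Zfp521 was called, higher, against 9.24% of all genes (4.78% higher and 4.46% lower). The 3 rescue comparisons share libraries, and the knockdown set shares none with them. The groups did not overlap in CPM for 9 of the 10 genes on knockdown (53% of all genes tested), 5 with JMJD1A(WT) against LacZ (22.9%), 8 with JMJD1A(H1122A) against JMJD1A(WT) (37.1%) and 2 with JMJD1A(H1122A) against LacZ (25.1%). In size, the log2 fold changes of the 10 genes had a median of 0.495 on knockdown, 0.218, 0.374 and 0.147 in the rescue comparisons in the same order, where all genes tested had 0.222, 0.092, 0.135 and 0.104. On knockdown, both the count of genes without overlap and this median include Gata3, tested only through the group where it was high.

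**Figure D2:**
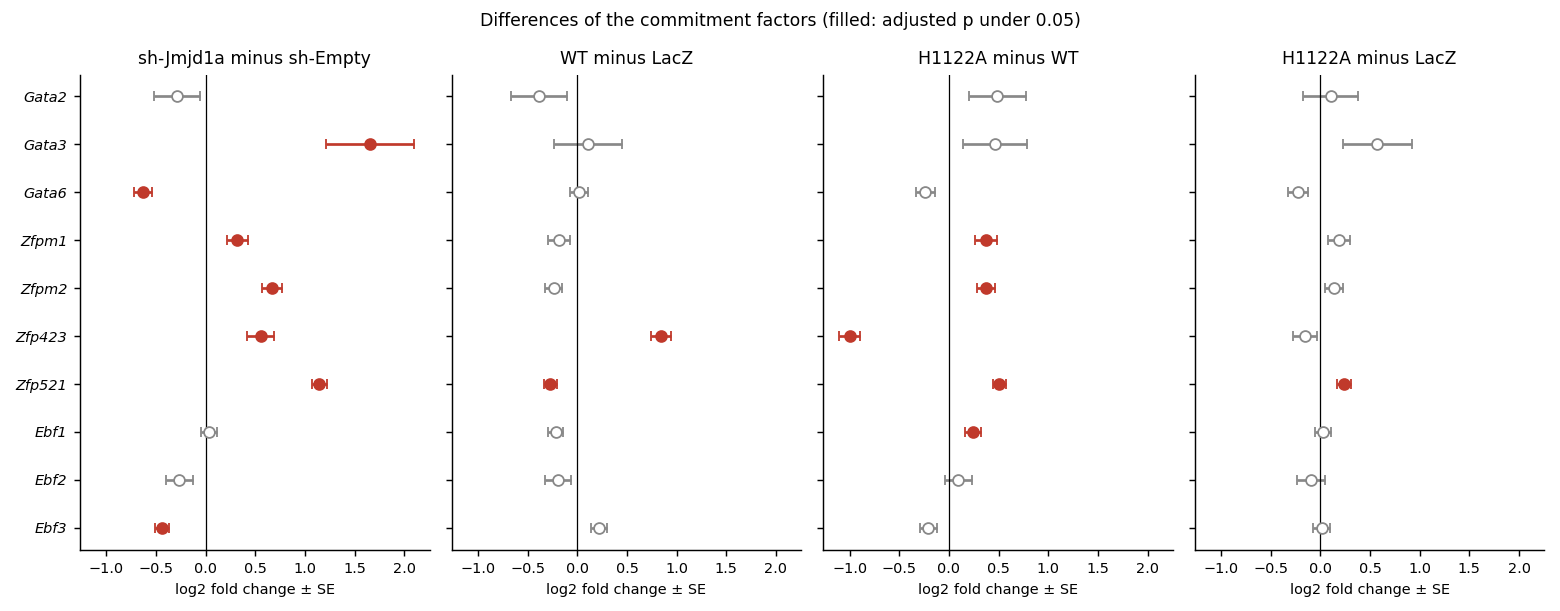
Log2 fold change with its standard error for the 10 genes in the 4 comparisons, filled where the adjusted p was under 0.05. Zfp521 is filled in every panel, and Zfp423 lies above 0 in both the knockdown panel and the JMJD1A(WT) minus LacZ panel.

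Zfp521, the brake on adipogenesis, was the only 1 of the 10 genes called in all 4 comparisons. The gene lies at 13845522 to 14131242 of chromosome 18 (mm9, minus strand). It was at 22.7, 21.0 and 22.3 CPM in sh-Empty cells and at 50.1, 45.7 and 50.6 CPM in sh-Jmjd1a cells. Every knockdown library was thus above every control library, by 2.21-fold (log2 fold change 1.14, standard error (SE) 0.080, adjusted p = 1.45e-12). In the rescue set it was at 56.8, 49.3 and 50.1 CPM with LacZ, at 44.9, 38.9 and 44.9 CPM with JMJD1A(WT), and at 61.1, 62.1 and 61.1 CPM with JMJD1A(H1122A). The 3 groups did not overlap, with JMJD1A(WT) lowest and JMJD1A(H1122A) highest. The log2 fold change was -0.27 with JMJD1A(WT) against LacZ (SE 0.0689, adjusted p = 0.00585), 0.51 with JMJD1A(H1122A) against JMJD1A(WT) (adjusted p = 1.02e-07) and 0.24 with JMJD1A(H1122A) against LacZ (adjusted p = 0.0192). The call of JMJD1A(WT) against LacZ was lost without LacZ replicate 1 (log2 fold change -0.204, adjusted p = 0.0801), and that of JMJD1A(H1122A) against LacZ without LacZ replicate 2 or 3 or JMJD1A(H1122A) replicate 1 or 2 (0.200 to 0.242, adjusted p from 0.0593 to 0.106).

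Zfp423, the factor of committed preadipocytes, did not mirror its knockdown change on rescue. Its level was 10.2, 9.31 and 8.87 CPM in sh-Empty cells and 15.3, 14.7 and 11.6 CPM in sh-Jmjd1a cells. The groups were apart, with a log2 fold change of 0.55 (SE 0.137, adjusted p = 0.00144). With LacZ the libraries had 12.6, 16.1 and 14.5 CPM, with JMJD1A(WT) they had 27.3, 24.4 and 25.7 CPM, and with JMJD1A(H1122A) they had 12.3, 13.2 and 13.2 CPM. The JMJD1A(WT) libraries stood above the other 6 rescue libraries, which overlapped. Zfp423 was 1.80-fold higher in JMJD1A(WT) than in LacZ cells (log2 fold change 0.85, SE 0.0998, adjusted p = 1.19e-08) and had a log2 fold change of -1.0 for JMJD1A(H1122A) against JMJD1A(WT) (SE 0.105, adjusted p = 2.44e-10). Between JMJD1A(H1122A) and LacZ its log2 fold change was -0.16 (adjusted p = 0.511). It was thus higher both where the hairpin against Jmjd1a was added and where JMJD1A(WT) was expressed on top of the hairpin. These calls held with any library left out.

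**Figure D3:**
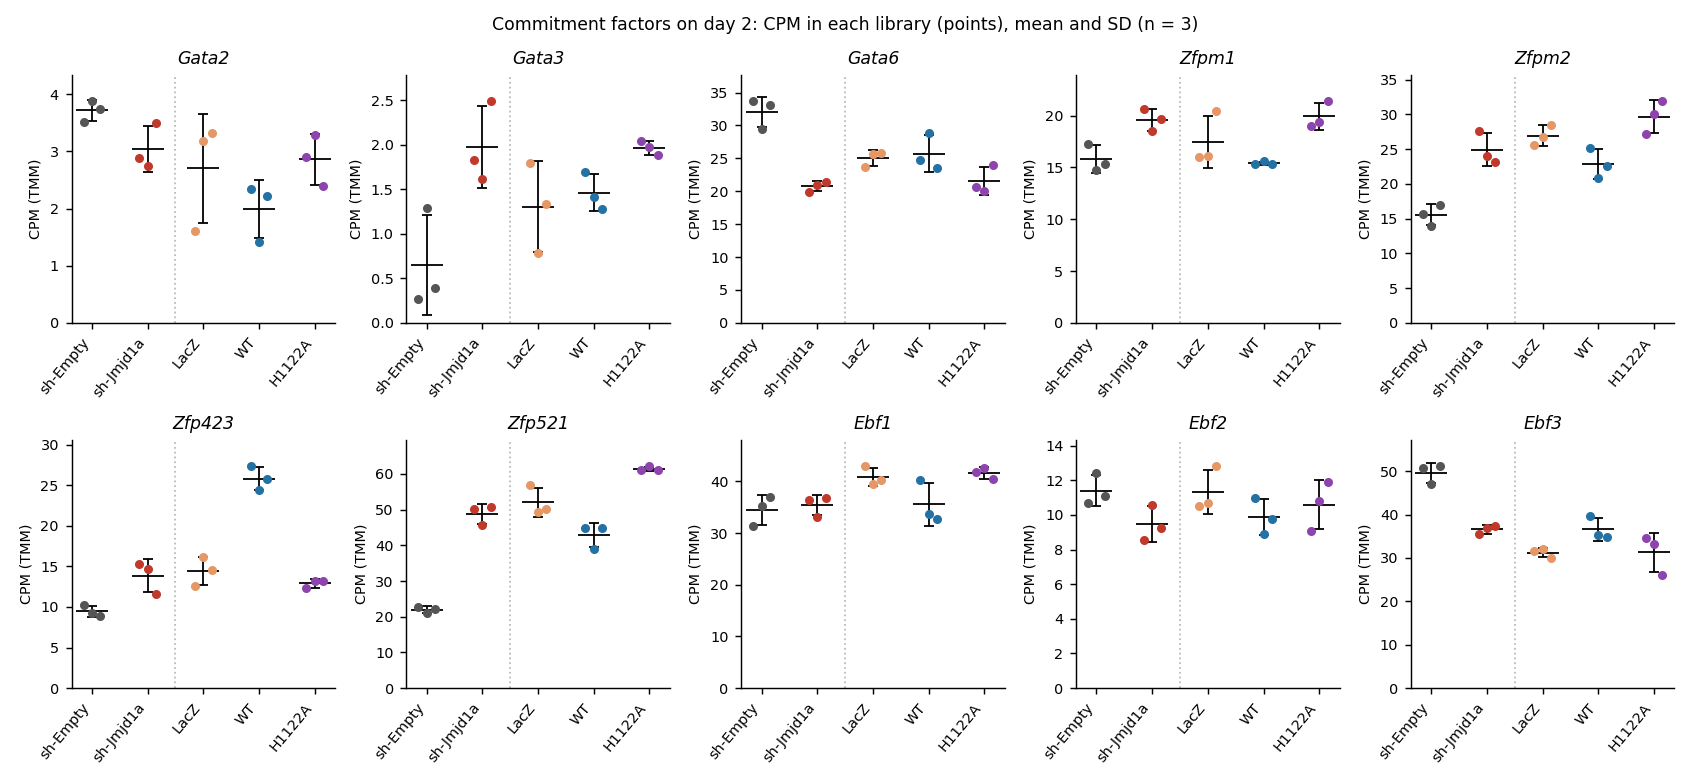
CPM of each gene in the 15 libraries (points) with the mean and SD of each group, the knockdown set left and the rescue set right of the dotted line, which were normalized apart. Zfp423 is highest with JMJD1A(WT), Zfp521 is lowest in sh-Empty cells, and Gata6 and Ebf3 are highest in sh-Empty cells.

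The FOG cofactors rose together on knockdown. Zfpm2 (FOG2) was at 15.7, 14 and 17 CPM in sh-Empty and at 27.6, 24.0 and 23.2 CPM in sh-Jmjd1a cells, and Zfpm1 (FOG1) was at 17.3, 14.8 and 15.3 CPM and at 20.6, 18.5 and 19.7 CPM. All sh-Jmjd1a libraries were above all sh-Empty libraries for both genes. The log2 fold change was 0.67 for Zfpm2 (SE 0.105, adjusted p = 5.87e-06) and 0.31 for Zfpm1 (SE 0.106, adjusted p = 0.0161). The Zfpm1 call was lost without sh-Empty replicate 2, sh-Empty replicate 3 or the first sh-Jmjd1a replicate (log2 fold change 0.280 to 0.287, adjusted p from 0.0554 to 0.0714). The study picked out Zfpm2 from these libraries, so that its direction here is not independent evidence.

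In the rescue set Zfpm2 was at 25.6, 26.7 and 28.5 CPM with LacZ, 25.1, 20.9 and 22.5 CPM with JMJD1A(WT), and 27.1, 30 and 31.9 CPM with JMJD1A(H1122A). Zfpm1 was at 16, 16.1 and 20.4 CPM, at 15.3, 15.6 and 15.3 CPM, and at 19.0, 19.4 and 21.4 CPM in the same order. For both genes the JMJD1A(WT) libraries were below all other rescue libraries, while LacZ and JMJD1A(H1122A) overlapped. Against JMJD1A(WT), JMJD1A(H1122A) gave a log2 fold change of 0.38 for Zfpm2 (SE 0.0899, adjusted p = 0.00127) and 0.37 for Zfpm1 (SE 0.108, adjusted p = 0.0083), and the latter call was lost without JMJD1A(H1122A) replicate 3 (0.322, adjusted p = 0.0564). With JMJD1A(WT) against LacZ, neither the log2 fold change of -0.24 for Zfpm2 (adjusted p = 0.0905) nor that of -0.19 for Zfpm1 (adjusted p = 0.357) passed.

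Among the GATA factors, Gata6 was lower on knockdown. Gata6 lies at 11052508 to 11085633 of chromosome 18 (mm9, plus strand) and is best known from heart and gut development. It was at 33.7, 29.5 and 33.1 CPM in sh-Empty and at 19.9, 20.9 and 21.4 CPM in sh-Jmjd1a cells. The groups were far apart, with a log2 fold change of -0.63 (SE 0.089, adjusted p = 1.04e-06). With LacZ it was at 23.7, 25.7 and 25.8 CPM, with JMJD1A(WT) at 24.8, 28.9 and 23.5 CPM, and with JMJD1A(H1122A) at 20.7, 20 and 24.0 CPM. All 3 rescue groups overlapped, and the log2 fold change with JMJD1A(WT) against LacZ was 0.02 (SE 0.0914, adjusted p = 0.953). The log2 fold change of -0.24 with JMJD1A(H1122A) against JMJD1A(WT) (adjusted p = 0.0674) passed without JMJD1A(WT) replicate 3 or JMJD1A(H1122A) replicate 3 (-0.319 and -0.317).

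Gata3 rested on few reads, with 3, 15 and 6 counts in sh-Empty and 21, 20 and 32 counts in sh-Jmjd1a cells. In CPM these were 0.264, 1.29 and 0.388 against 1.83, 1.61 and 2.49. The groups did not overlap, with a log2 fold change of 1.65 (SE 0.442, adjusted p = 0.00288). With 1 library left out it ranged from 1.329 (without sh-Empty replicate 3, adjusted p = 0.0367) to 2.537 (without sh-Empty replicate 2). In the knockdown set only 1 sh-Empty library reached the filter's 0.833 CPM and all 3 sh-Jmjd1a libraries did, so the gene entered the test through the group where it was high. In the rescue set its libraries held 11 to 33 counts and 0.779 to 2.04 CPM, and none of the 3 comparisons passed (adjusted p = 0.909, 0.330 and 0.347 for JMJD1A(WT) against LacZ, JMJD1A(H1122A) against JMJD1A(WT) and JMJD1A(H1122A) against LacZ), although its JMJD1A(H1122A) libraries were above all others of the set. Gata2 held 18 to 58 counts per library over both sets. Its level was 3.52 to 3.88 CPM in sh-Empty and 2.74 to 3.50 CPM in sh-Jmjd1a cells, with a log2 fold change of -0.29 (SE 0.230, adjusted p = 0.325). Gata2 was at 1.60 to 3.32 CPM with LacZ, 1.41 to 2.35 CPM with JMJD1A(WT) and 2.40 to 3.28 CPM with JMJD1A(H1122A), and the smallest adjusted p of its rescue comparisons was 0.230, for a log2 fold change of 0.49 (SE 0.284) with JMJD1A(H1122A) against JMJD1A(WT), whose libraries did not overlap.

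Of the EBF genes, Ebf3 alone was called on knockdown. It was at 50.7, 47 and 51.1 CPM in sh-Empty and at 35.5, 37.0 and 37.4 CPM in sh-Jmjd1a cells. Every sh-Jmjd1a library was below every sh-Empty library, with a log2 fold change of -0.44 (SE 0.071, adjusted p = 8.88e-06). With LacZ, JMJD1A(WT) and JMJD1A(H1122A) Ebf3 was at 31.7, 32.0 and 30 CPM, at 39.7, 35.3 and 34.9 CPM, and at 34.5, 33.3 and 26.1 CPM. JMJD1A(WT) was above both other groups, but its log2 fold changes of 0.22 against LacZ (SE 0.0831, adjusted p = 0.0963) and -0.21 for JMJD1A(H1122A) against it (SE 0.0851, adjusted p = 0.0703) did not pass. Both passed with the replicate number as a block (adjusted p = 0.0343 and 0.0261), and the second also passed without JMJD1A(H1122A) replicate 1 (-0.280, adjusted p = 0.0370).

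Ebf1 was at 31.3, 35.3 and 37.0 CPM in sh-Empty and at 36.4, 33.2 and 36.7 CPM in sh-Jmjd1a cells. These overlapped, with a log2 fold change of 0.03 (SE 0.0812, adjusted p = 0.797). In the rescue set it was at 42.9, 39.5 and 40.2 CPM with LacZ, at 40.3, 33.6 and 32.8 CPM with JMJD1A(WT) and at 41.9, 42.6 and 40.4 CPM with JMJD1A(H1122A). JMJD1A(WT) replicate 1 lay just under the lowest JMJD1A(H1122A) library and within the range of LacZ, while replicates 2 and 3 lay below all others. Ebf1 was higher with JMJD1A(H1122A) than with JMJD1A(WT) by 0.24 on the log2 scale (SE 0.0776, adjusted p = 0.0173), a call lost without JMJD1A(WT) replicate 3 (0.170, adjusted p = 0.184) or JMJD1A(H1122A) replicate 1 or 2 (0.239 and 0.226). Against LacZ its log2 fold change with JMJD1A(WT) was -0.22 (adjusted p = 0.0649), and it passed without JMJD1A(WT) replicate 1 (-0.307, adjusted p = 0.00981). Ebf2, the factor of brown and beige precursors, stayed between 8.55 and 12.8 CPM in all 15 libraries and was called in no comparison. Its log2 fold change on knockdown was -0.27 (SE 0.137, adjusted p = 0.112), although the groups, at 10.7 to 12.4 and 8.55 to 10.6 CPM, did not overlap.

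Ratios of related factors within a library need no size factor, and with 3 against 3 libraries a two-sided exact permutation test cannot give a p below 0.1. Each count had 0.5 added before a ratio was taken. The ratio of Zfp423 to Zfp521 counts was 0.451, 0.444 and 0.398 in sh-Empty and 0.305, 0.322 and 0.229 in sh-Jmjd1a cells. It was 0.222, 0.327 and 0.290 with LacZ, 0.609, 0.628 and 0.573 with JMJD1A(WT), and 0.202, 0.213 and 0.217 with JMJD1A(H1122A). No groups of either set overlapped in this ratio. It fell 1.52-fold on knockdown, was 2.18-fold higher in JMJD1A(WT) than in LacZ cells and 2.87-fold lower in JMJD1A(H1122A) than in JMJD1A(WT) cells, each at the smallest p of the exact permutation test, 0.1. Between JMJD1A(H1122A) and LacZ it differed 1.31-fold (exact permutation p = 0.1). The pair thus ordered the 3 rescue groups as JMJD1A(WT), LacZ and JMJD1A(H1122A).

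The ratio of Zfpm2 to Zfpm1 counts was 0.908, 0.942 and 1.11 in sh-Empty and 1.34, 1.30 and 1.17 in sh-Jmjd1a cells, a 1.29-fold difference without overlap (exact permutation p = 0.1). Over the 9 rescue libraries it lay between 1.34 and 1.66 and all groups overlapped (exact permutation p = 0.5 to 0.9 over the 3 comparisons). With 0.5 added to each count, the ratio of Gata2 to Gata3 was 11.6, 2.94 and 9 in sh-Empty and 1.56, 1.68 and 1.40 in sh-Jmjd1a cells. The groups were 4.37-fold apart (exact permutation p = 0.1). This rests on the 3 to 15 Gata3 counts of the sh-Empty libraries. The difference was -2.13 on the log2 scale, and with 1 library left out it ranged from -2.73 to -1.74. In the rescue set it ranged from 0.891 to 3.96 and the groups overlapped. The ratio of Ebf2 to Ebf1 counts overlapped in every comparison, from 0.218 to 0.352 over the 15 libraries.

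**Figure D4:**
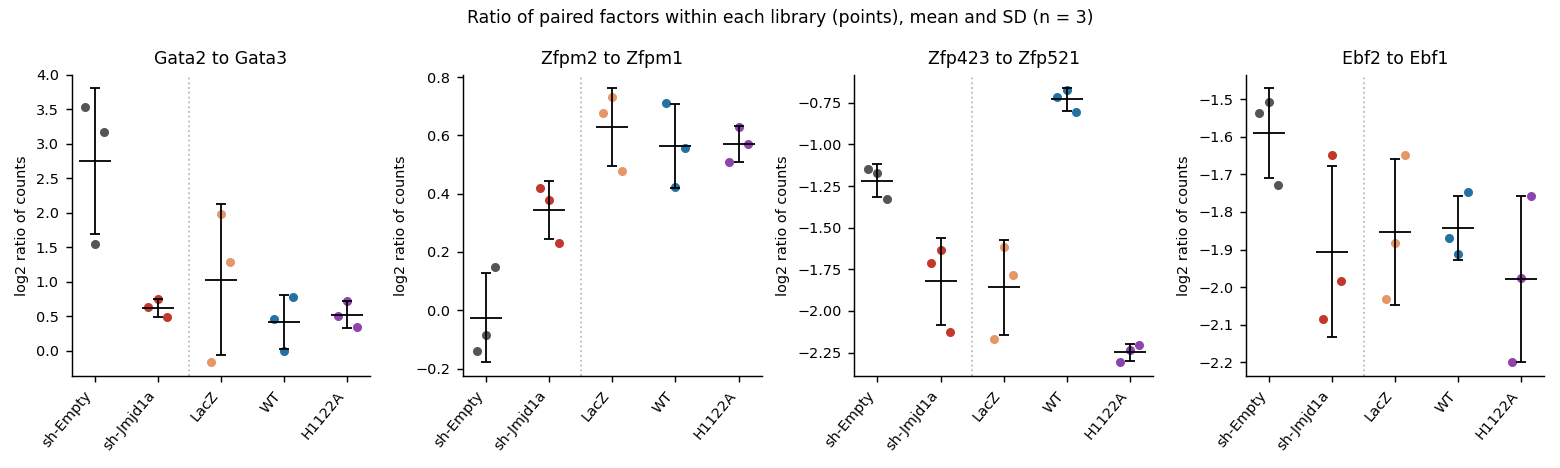
Log2 ratio of the counts of 4 pairs of related genes in each library (points), with the mean and SD of each group, on axes that do not start at 0. The ratio of Zfp423 to Zfp521 separates all groups within each set, and that of Ebf2 to Ebf1 overlaps throughout.

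The genes whose levels ran closest to those of these factors were found as the smallest root mean square difference of log2 CPM over the 15 libraries, each set centred on its mean, among 10223 genes. For Zfp521 they were Zyx (0.077), Il1rap (0.077) and Jcad (0.082), where the median gene was at 0.419. For Zfp423 they were Medag (0.130), Dpt (0.152) and Fmo1 (0.165), against a median of 0.42. Zfpm2 ran closest to Cebpd (0.090), the C/EBP delta gene, Tpbg (0.092) and Samd4b (0.092), against a median of 0.291, and Zfpm1 to Bbs2 (0.083), Jun (0.085) and Sqor (0.088), against a median of 0.22. The libraries of each set share their normalization, and the values are a description.

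Partners of the GATA and FOG proteins, mostly subunits of the NuRD and CtBP corepressors, changed by small amounts. Of 18 tested out of 22, 8 were higher and 4 lower on knockdown, with a median log2 fold change of 0.06 where all genes had -0.003. Of the 18, 66.7% were called against 46.2% of all genes, and 8 to 12 were called with 1 library left out. The changes of largest size were those of Mbd3 (log2 fold change -0.40) and Hdac2 (-0.37), both NuRD subunits, and Gatad2b (0.34), another. For JMJD1A(H1122A) against JMJD1A(WT) 2 were higher and 2 lower (22.2% called, against 23.8% of all genes). Among them were Chd4 (-0.23), the NuRD remodeller, and Ldb1 (0.16) and Lmo4 (0.15), adaptors of LIM complexes. The list's 4 calls became 2 and that of Lmo4 was lost without JMJD1A(WT) replicate 1 or JMJD1A(H1122A) replicate 2 (0.143 and 0.138). In each of the other 2 rescue comparisons 2 of the 18 were called (11.1%). With JMJD1A(WT) against LacZ 1 was higher and 1 lower (9.5% of all genes called), and with JMJD1A(H1122A) against LacZ 2 were lower (9.24%). Gata1, Gata4, Gata5 and Lmo2 did not pass the filter.

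In the BMP and SMAD pathway, in which ZFP423 acts, 8 of 13 tested genes were higher and 2 lower on knockdown (76.9% called, against 46.2% of all genes), with a median log2 fold change of 0.26. Only 8 or 9 of the 13 were called with 1 library left out. The ID genes, targets of BMP signalling that inhibit other transcription factors, went both ways. Id2 rose from 9.27 ± 0.864 to 14.9 ± 1.37 CPM (SD, n = 3) and Id4 from 4.30 to 6.84 CPM, both by 0.69 on the log2 scale, and Id1 fell from 157 to 99.5 CPM (log2 fold change -0.67). With JMJD1A(H1122A) against JMJD1A(WT), 3 were higher and 1 lower (30.8% called, against 23.8% of all genes), with Id2 at 1.18 and Id3 at 0.89 on the log2 scale. Ccn5 (-0.80), whose product is known to hold ZFP423 outside the nucleus, was the lower 1. Ccn5 was higher in JMJD1A(WT) than in LacZ cells (0.62) and also higher on knockdown (0.55), the same signs as those of Zfp423. With JMJD1A(WT) against LacZ Id2 (-0.63) and Id3 (-0.42) were lower, 3 of 13 called (23.1%, against 9.5% of all genes). With JMJD1A(H1122A) against LacZ Id2 and Id3 were higher, 2 of 13 called (15.4%, against 9.24% of all genes). Bmp2, Bmp4, Bmp7, Bmpr1b and Smad9 did not pass the filter.

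Of the EBF partners and the brown fat program, 5 of 16 genes passed the filter, and Prdm16, Ucp1, Cidea and Ebf4 were among those that did not. Ppargc1b, a coactivator of mitochondrial genes, fell from 11.9 ± 0.518 to 3.27 ± 0.639 CPM (SD, n = 3) on knockdown, while Dio2, a deiodinase that activates thyroid hormone, rose from 5.24 ± 0.301 to 17.7 ± 0.928 CPM (SD, n = 3). In JMJD1A(H1122A) against JMJD1A(WT) Ppargc1b was lower (-1.81) and Dio2 higher (0.53), the latter call being lost without JMJD1A(H1122A) replicate 2 (0.376, adjusted p = 0.131). These 2 were the only genes of the list called in either comparison (40% of the 5 tested). Of all genes, 46.2% were called on knockdown and 23.8% for JMJD1A(H1122A) against JMJD1A(WT). With JMJD1A(WT) against LacZ 2 of 5 were called (40%, against 9.5% of all genes), Ppargc1b higher and Ppargc1a lower. With JMJD1A(H1122A) against LacZ only Ppargc1b was called, lower (20%, against 9.24% of all genes).

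Among other regulators of commitment and brakes on it, 12 of 25 tested were higher on knockdown, 3 were lower and 10 were not called (60% called, against 46.2% of all genes, of which 22.3% were higher), with a median log2 fold change of 0.20. Ddit3 (CHOP), which blocks C/EBP proteins, rose by 0.88, Klf4 by 0.81 and Runx1 by 0.77 on the log2 scale. For JMJD1A(H1122A) against JMJD1A(WT), 9 were higher and 2 lower (44% called, against 23.8% of all genes, and 6 or 7 of 25 genes without JMJD1A(H1122A) replicate 2 or JMJD1A(WT) replicate 1), with Twist2, a repressor of mesenchymal differentiation, at 0.51 and the lower genes Nr2f1 (-0.47) and Runx1 (-0.45). The Runx1 call was lost without JMJD1A(WT) replicate 3 or JMJD1A(H1122A) replicate 1 or 2 (-0.365 to -0.422). With JMJD1A(WT) against LacZ 1 was higher and 5 lower (24% called, against 9.5% of all genes), and 3 were called without LacZ replicate 2 or JMJD1A(WT) replicate 3. With JMJD1A(H1122A) against LacZ 2 were higher (8% called, against 9.24% of all genes).

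Surface markers of preadipocytes did not move as a block. On knockdown 6 of 11 tested were higher and 3 lower (81.8% called, against 46.2% of all genes), and 6 to 9 were called with 1 library left out. Thy1 rose from 89.8 to 174 CPM, Eng had a log2 fold change of 1.13 and Cd24a fell from 37.0 to 21.8 CPM. Eng was near the filter, at 0.946 and 2.01 CPM, its groups overlapped, and its call did not hold when sh-Empty replicate 2, sh-Empty replicate 3 or the third sh-Jmjd1a replicate was left out (0.880 to 0.945). With JMJD1A(H1122A) against JMJD1A(WT), 5 of 12 were higher and 2 lower (58.3% called, against 23.8% of all genes). Ly6a, the SCA-1 antigen of progenitors, fell from 27.6 to 9.51 CPM, Dlk1 (PREF-1) fell from 752 to 386 CPM, and Cd24a rose from 6.42 to 11.8 CPM. With JMJD1A(WT) against LacZ 3 were higher and 2 lower (41.7% called, against 9.5% of all genes). With JMJD1A(H1122A) against LacZ 3 were higher and 1 was lower (33.3% called, against 9.24% of all genes).

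Adipocyte genes moved in the comparisons beside the commitment factors. Of 14 genes, 12 were lower and 1 higher on knockdown (median log2 fold change -1.74), 12 were higher and 1 lower with JMJD1A(WT) against LacZ (0.69), and 12 were lower and 1 higher with JMJD1A(H1122A) against JMJD1A(WT) (-1.64). With JMJD1A(H1122A) against LacZ 10 were lower (-0.96). The share called was 92.9% in each of the first 3 comparisons, against 46.2%, 9.5% and 23.8% of all genes. In the last it was 71.4%, against 9.24%. Cfd, Retn and Adipoq, which encode secreted adipokines, had the largest changes on knockdown (-3.73, -3.44 and -3.35), and Retn, Adipoq and Fabp4, a fatty acid carrier, were among the largest with JMJD1A(H1122A) against JMJD1A(WT) under the rule for named genes (-3.64, -2.52 and -2.37). How far the cells had differentiated and the level of the commitment factors were measured in the same libraries, and the part of the former in the latter was not tested.

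**Figure D5:**
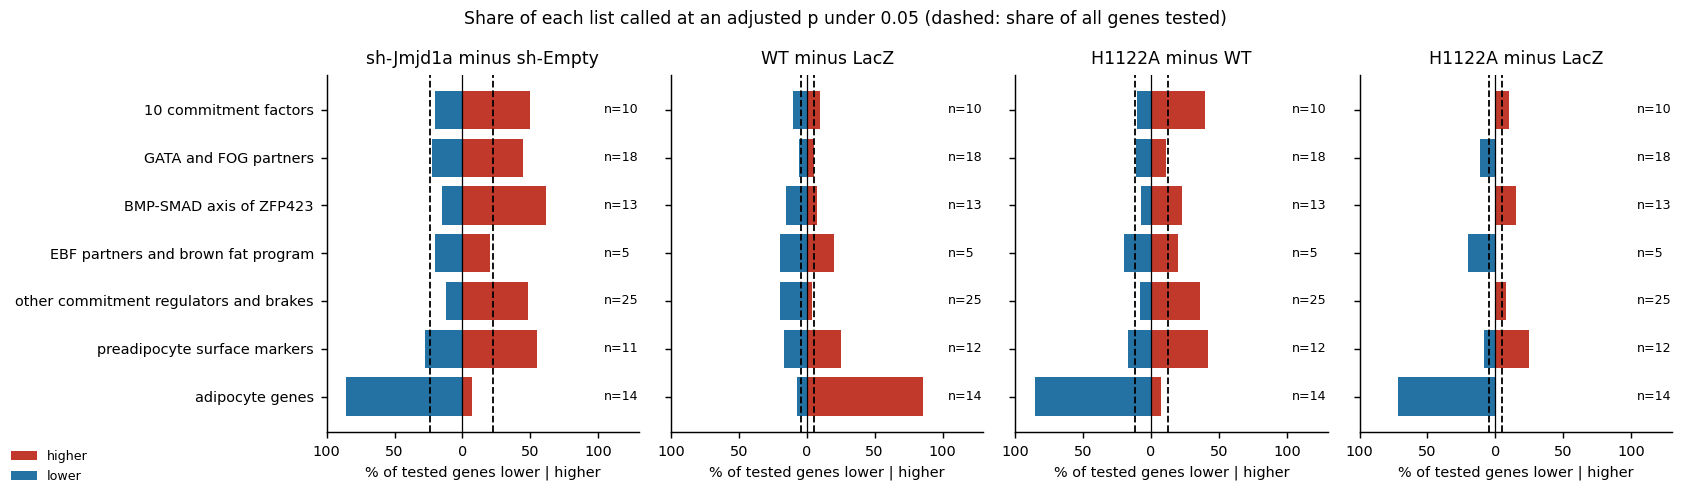
Share of the tested genes of each list called lower (left, blue) or higher (right, red) at an adjusted p under 0.05, with the number tested, in the 4 comparisons. The dashed lines give the share of all genes tested that was called in that direction, and adipocyte genes pass it the furthest in each panel.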

How the data were processed

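Polyadenylated RNA of 3T3-L1 cells on day 2 was sequenced in 5 groups of 3 libraries. The authors made the deposited counts, whole reads per gene number, with fastp, HISAT2 and featureCounts on mm9, per the labels. The strand setting of the counting is not given in the sources used here. Gene names were matched for 24191 of 26301 gene numbers in RefSeq (GRCm38.p6). Separate fits were made for the 6 knockdown and the 9 rescue libraries with edgeR 4.0.16 (TMM, genes kept by filterByExpr with a minimum count of 10, robust quasi-likelihood F test) in R 4.3.3, with p-values adjusted over all genes tested. RPKM used merged GENCODE M1 exons, which may differ from the annotation used for counting. Ratios were taken after 0.5 was added to each count, both for the values given per library and for the two-sided exact permutation tests. Replicates differed by more than sampling noise (chi-square per degree of freedom 2.058 to 5.22), so each counted as 1 sample. Alternatives were other size factors, filters and fits, DESeq2 1.42.0, a replicate block and leaving out each library.

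The factors and the gene lists were chosen with earlier results of these data known. Besides Zfpm2, the study picked out Chd4, Dlk1, Retn, Fabp4 and Bbs2 with the help of these libraries. The directions of these genes here are not independent evidence either. Named list genes were the 3 called genes of each list with the largest absolute log2 fold change on knockdown and the 3 in JMJD1A(H1122A) against JMJD1A(WT), at a mean of at least 1 CPM. Genes with a similar pattern were sought for factors called in at least 2 comparisons, at a mean of at least 5 CPM. Other genes named from the lists, such as Ppargc1a, were chosen after their values were seen. Steps were tested on simulated data before use. 1 marker gene is not reported here.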

Additional observations from a re-analysis of the deposited data

How the results depend on the processing

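With every library kept, 6 of the 10 factors were called on knockdown with at least 10 counts in every library, in place of 7, and 1 more factor was called in 2 rescue comparisons under the replicate block. The other alternatives left these counts as they were. The ratios could not pass a threshold of 0.05 in this design, and they kept their sign with another pseudocount. With 1 library left out, 1 to 3 factors were called for JMJD1A(WT) against LacZ (1 without LacZ replicate 1, 3 without JMJD1A(WT) replicate 1) and 0 to 1 for JMJD1A(H1122A) against LacZ (0 without LacZ replicate 2 or 3 or JMJD1A(H1122A) replicate 1 or 2). Differences near 0 changed sign in this way. The log2 ratio difference ranged from -0.101 to 0.289 for Gata2 to Gata3 and from -0.064 to 0.080 for Zfpm2 to Zfpm1 in JMJD1A(H1122A) against JMJD1A(WT), and from -0.140 to 0.006 for Zfpm2 to Zfpm1 and from -0.077 to 0.115 for Ebf2 to Ebf1 in JMJD1A(WT) against LacZ. The log2 fold change ranged from -0.028 to 0.087 for Ebf1 on knockdown, from -0.151 to 0.414 for Gata3 and from -0.061 to 0.096 for Gata6 in JMJD1A(WT) against LacZ, and from -0.176 to 0.282 for Gata2, -0.182 to 0.001 for Ebf2 and -0.061 to 0.118 for Ebf3 in JMJD1A(H1122A) against LacZ. Counts of 2 called list genes became 1 or 0 under some fits in the 2 comparisons against LacZ, and leaving out 1 library moved further list counts, from 11 to as few as 6 for other regulators and from 4 to 2 for GATA and FOG partners in JMJD1A(H1122A) against JMJD1A(WT), and from 6 to 3 for other regulators in JMJD1A(WT) against LacZ. DESeq2 left Runx1 uncalled for JMJD1A(H1122A) against JMJD1A(WT) (adjusted p = 0.0509), and Gata3 could not be tested on knockdown with at least 10 counts in every library. The causes were not tested. Gata2 held 18 to 58 counts and Gata3 held 3 to 33 counts per library.

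Same-numbered libraries had correlations of their deviations from -0.044 to 0.054, and differently numbered libraries from -0.057 to 0.065. In the rescue set, replicates 1 and 2 gave 0.022 to 0.054 where numbers matched and -0.057 to -0.025 where they did not. Matched replicate 3 libraries gave -0.015 to 0. Correlations this small do not settle whether same-numbered samples were handled together, and the main fits used no block. With the replicate number as a block, Ebf3 passed for JMJD1A(WT) against LacZ (log2 fold change 0.237, adjusted p = 0.0343) and for JMJD1A(H1122A) against JMJD1A(WT) (-0.229, adjusted p = 0.0261), and no other call among the 10 factors changed.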
